A study of Mus musculus with 8 samples.

Results

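WFS1 peaks in and around 10 genes of sarcoplasmic reticulum calcium handling were examined in C2C12 cells, an established line of mouse myoblasts kept proliferating, which can be made to fuse into myotubes. The genes were Ryr1, Itpr1, Itpr2 and Itpr3, which encode calcium release channels, Atp2a1 and Atp2a2, which encode calcium pumps, Casq1 and Casq2, which encode luminal calcium buffers, and Stim1 and Orai1, which carry store-operated calcium entry. They were chosen by name from their function, with earlier results of these data known, and are 10 of the 21938 protein-coding genes annotated. Every peak in a gene or within 100 kb of its ends was counted, which gave 58 of the 22292 peaks of the combined set. The peaks came from WFS1 ChIP-seq of wildtype cells, with chromatin sonicated for 30 or for 36 cycles in all. Both libraries derived from 1 immunoprecipitation with an antibody against WFS1, after crosslinking with DSG and formaldehyde, and the 36-cycle library from the portion sonicated for 6 further cycles. Each condition has 1 library, so the lists are not replicates and no test between conditions, and no error between replicates, could be had. The experiment holds 8 libraries. The other 6, which are the inputs of wildtype and knockout cells and the ChIP of WFS1 knockout cells that stably express FLAG-tagged WFS1, were not used here.

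The deposited lists give the position of each peak but no height, score or read count, so the depth behind a peak is unknown and every peak counts alike. The 30-cycle list holds 18283 peaks with a median width of 387 bp and the 36-cycle list 12674 with a median of 327 bp. Overlapping peaks were joined, and the 22292 joined peaks had a median width of 376 bp. Because the files hold no expression values, the labelled myoblast identity could not be checked against markers, and whether the 10 genes were transcribed in these cells was not measured here. Positions are on GRCm38, counted from 1, and distances run from the nearest edge of a peak to the 5′ end of the gene.

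In skeletal muscle, an action potential opens the ryanodine receptor of the sarcoplasmic reticulum, and the calcium that leaves the store triggers contraction. Pumps of the SERCA family return calcium to the store, where calsequestrins bind it, and STIM proteins sense an empty store and open ORAI channels in the plasma membrane. Inositol trisphosphate receptors release calcium from the same store and from the endoplasmic reticulum of other cells. WFS1 (wolframin) is a membrane protein known from the endoplasmic reticulum, where it has been linked to calcium homeostasis, and its gene is mutated in Wolfram syndrome. Peaks near these genes are positions on chromatin and carry no information on calcium.

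All 10 genes had at least 1 joined peak in or within 100 kb, as did 73.4% of all protein-coding genes. A peak found in both lists lay in or within 100 kb of 7 of the 10 genes, against 47.8% of protein-coding genes. The gene body itself held a peak in 5 of 10 genes, namely Ryr1, Itpr1, Itpr2, Itpr3 and Casq2, against 24.6% of protein-coding genes. Longer genes hold peaks more often. Among protein-coding genes of like length (within a factor of 1.25), the share with a peak inside was 56.1% for Ryr1, 65.8% for Itpr1, 65.1% for Itpr2, 39.0% for Itpr3 and 37.6% for Casq2. For the genes without one it was 58.0% for Stim1 and from 14.2 to 32.9% for the other 4. Near start sites the counts of genes were small. The nearest peak lay within 10 kb of the start site in 2 of 10 genes (Itpr3 and Atp2a2), where 25.1% of protein-coding genes had one, and within 1 kb in 1 of 10 (Itpr3), where the share of protein-coding genes was 13.2%. With 10 genes, a count of 1 or 2 does not separate from these shares. When every annotated transcript start was used, an alternative chosen after seeing the data, 5 of 10 genes had a peak within 10 kb, against 29.8% of protein-coding genes. The 3 genes added were Itpr1, Itpr2 and Casq2, each by a start of a transcript inside the gene. These starts lay 246, 305 and 57.6 kb from the gene's 5′ end. The transcripts are annotated as processed transcripts for Itpr1 and Itpr2 and as a retained intron for Casq2, not as protein-coding. The 3 genes have 13, 10 and 5 annotated start positions, and the number of starts was not matched in the 29.8%.

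The 10 genes are longer than most, with a median length of 62.5 kb against 17.4 kb over all protein-coding genes, and a long gene has a wide window. Among protein-coding genes with a length in the range of the 10, 78.9% had a peak in or within 100 kb. The median number of peaks was 5 per gene for the 10 and 2 for all protein-coding genes. Per 100 kb of window, the medians were 1.72 and 0.935 peaks. Each gene's count was therefore also set beside those of protein-coding genes of like length, and below, as many means as many or more.

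By gene, Itpr3 had 13 peaks, Itpr1 12, Itpr2 9 and Ryr1 7. Casq1 and Casq2 had 5 each, Atp2a1, Atp2a2 and Stim1 had 2 each, and Orai1 had 1. The 4 release channel genes thus held 7 to 13 peaks each and the other 6 genes 1 to 5. Of the 58 peaks, 18 lay inside a gene of the set, 18 upstream of one and 22 downstream. The nearest protein-coding start site belonged to the gene itself for 12 of the 58, and 18 of the 58 lay in another annotated gene, so most of these peaks cannot be given to a calcium handling gene by position alone.

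**Figure D1:**
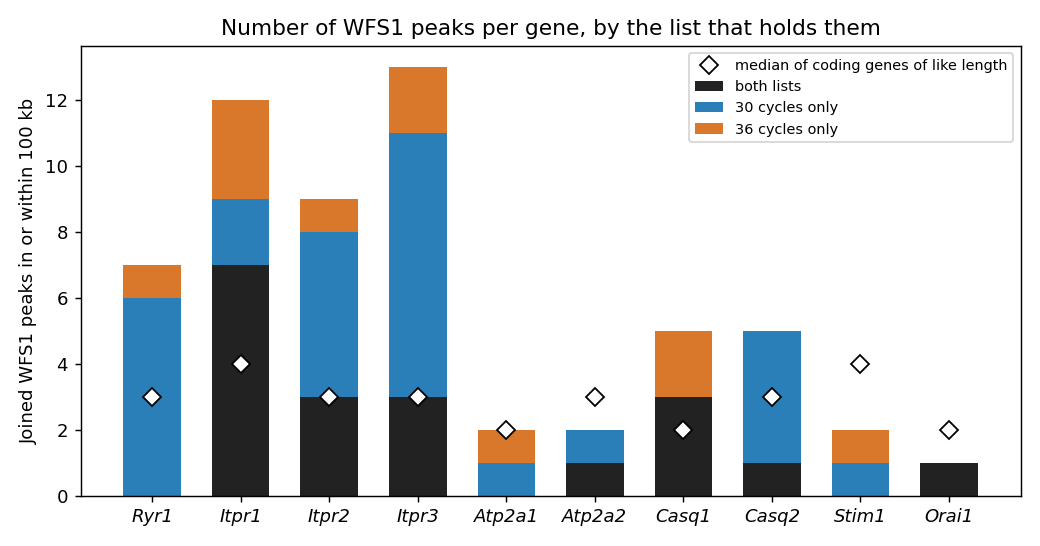
Number of joined WFS1 peaks in or within 100 kb of each of the 10 genes (vertical axis, count of peaks), stacked by the list that holds them, with diamonds at the median of protein-coding genes of like length. The 4 release channel genes reach 7 to 13 peaks, above diamonds at 3 or 4. Casq1 and Casq2, at 5 peaks each, also lie above theirs, at 2 and 3. Atp2a1 equals its diamond at 2, whereas Atp2a2, Stim1 and Orai1 stay below theirs.

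Ryr1 (ENSMUSG00000030592, chr7:29003344-29125179, minus strand) encodes the release channel of the skeletal muscle sarcoplasmic reticulum. Its 7 peaks were each in 1 list, 6 in the 30-cycle list and 1 in the 36-cycle list. Among 1125 protein-coding genes of like length the median was 3 peaks, and 22.5% had as many as Ryr1. The pair of peaks inside the gene, chr7:29025209-29025683 (475 bp) and chr7:29034443-29034809 (367 bp), both lay in intron 92 of 108, at 99.5 and 90.4 kb from the start site, and both came from the 30-cycle list. Repeats annotated in the genome covered 50.9% of the former and 94.8% of the latter.

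Nothing was listed close to the Ryr1 start site. The nearest peak was 53.8 kb upstream, came from the 36-cycle list and lay in Psmd8, a proteasome subunit gene, at 1.46 kb from its start. The other 4 peaks, from 242 to 739 bp wide, lay beyond the 3′ end of Ryr1 around the start site of Actn4, an alpha-actinin gene. The widest of the window, chr7:28969705-28970443 (739 bp), was 7.37 kb upstream of Actn4 and 155 kb from the Ryr1 start.

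Itpr1 (ENSMUSG00000030102, chr6:108213096-108551109, plus strand) encodes inositol trisphosphate receptor type 1. It had 12 peaks, of which 7 were in both lists, 2 in the 30-cycle list only and 3 in the 36-cycle list only. The median of 345 protein-coding genes of like length was 4, and 11.9% of them had as many. Inside the gene lay 9 peaks, 6 of them in both lists, and the remaining 3 lay past the 3′ end.

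All 12 peaks of Itpr1 lay far from its start site, the first 229 kb into the gene. Intron 44 of 61 held 5 peaks within 16.3 kb, namely chr6:108442211-108442820 (610 bp), chr6:108444381-108445152 (772 bp), chr6:108448420-108448885 (466 bp) and chr6:108458010-108458506 (497 bp) in both lists and chr6:108457564-108457888 (325 bp) in the 36-cycle list. Intron 60 of 61 held 4 peaks within 9.46 kb, of which chr6:108534552-108535512 (961 bp, the widest of the window) and chr6:108536508-108537463 (956 bp) were in both lists. The other peaks of that intron were chr6:108528002-108528257 (256 bp, 30-cycle list) and chr6:108531343-108531609 (267 bp, 36-cycle list). Downstream, chr6:108570045-108570628 (584 bp) was in both lists and had a peak of each list beside it, all 3 within 1.45 kb. The first 229 kb of Itpr1 and the 100 kb before it held none.

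For every peak of Itpr1 the nearest protein-coding start site was that of Bhlhe40, a basic helix-loop-helix repressor gene, at distances from 89.7 to 218 kb. An annotated transcript without coding sequence starts inside Itpr1, 246 kb from the gene's 5′ end, and the peak at chr6:108458010-108458506 ended 197 bp before it. The widest peak of both lists is shown to give the sequence inside the gene's 3′ introns. Printed are the central 300 bp on the plus strand, with capitals at every match to 1 of the 8 motifs searched (named in the paragraph on motifs), and it holds a pair of CAGCTG, an E-box, the kind of site that MYOD1 and its relatives use.
Itpr1, chr6:108534882-108535181: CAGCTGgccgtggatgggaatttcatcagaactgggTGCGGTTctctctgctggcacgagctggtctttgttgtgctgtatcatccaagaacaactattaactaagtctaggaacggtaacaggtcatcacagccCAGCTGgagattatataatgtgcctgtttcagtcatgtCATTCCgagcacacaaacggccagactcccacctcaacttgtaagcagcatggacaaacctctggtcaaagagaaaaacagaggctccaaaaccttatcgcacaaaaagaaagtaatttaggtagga

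Itpr2 (ENSMUSG00000030287, chr6:146108299-146502223, minus strand) encodes inositol trisphosphate receptor type 2 and is the longest gene of the set, at 394 kb. It had 9 peaks, 3 in both lists, 5 in the 30-cycle list only and 1 in the 36-cycle list only. The median of 295 protein-coding genes of like length was 3 peaks, and 19.3% had as many. Of the 4 peaks inside, chr6:146120039-146120572 (534 bp) and chr6:146133815-146134282 (468 bp) were in both lists, and both lay in intron 55 of 56, close to the 3′ end. The other peaks inside came from the 30-cycle list, with chr6:146205085-146205454 (370 bp) in intron 45 and chr6:146432344-146432900 (557 bp, the widest of the window) in intron 2, 69.3 kb from the start site.

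Upstream of Itpr2, 3 peaks lay from 17.0 to 30.8 kb before the start site, each in 1 list, and none was nearer. Past the 3′ end, chr6:146008474-146008870 (397 bp) was in both lists and another peak came from the 30-cycle list. They belong to a run of 7 joined peaks spread over 12.4 kb, of which the other 5 fell outside the window. The nearest protein-coding start site was that of Itpr2 for 4 of the 9 peaks and that of Sspn, the sarcospan gene of the dystrophin complex, for the remaining 5. The widest peak of both lists inside Itpr2 is shown beside that of Itpr1, since both lie in the next-to-last intron of paralogous genes. Its central 300 bp hold no match to the motifs and so no capitals.
Itpr2, chr6:146120156-146120455: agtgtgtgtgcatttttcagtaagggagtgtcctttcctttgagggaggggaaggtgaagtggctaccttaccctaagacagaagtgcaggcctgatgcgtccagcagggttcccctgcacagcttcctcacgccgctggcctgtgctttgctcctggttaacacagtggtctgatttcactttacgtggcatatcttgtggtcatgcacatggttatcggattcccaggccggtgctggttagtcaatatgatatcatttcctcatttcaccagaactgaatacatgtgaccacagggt

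Itpr3 (ENSMUSG00000042644, chr17:27057304-27122223, plus strand) encodes inositol trisphosphate receptor type 3. With 13 peaks in a window around 64.9 kb of gene it had the highest count of the set and the highest density, 4.91 per 100 kb, and 2.62% of 1716 protein-coding genes of like length had as many. Its peaks were 3 in both lists, 8 in the 30-cycle list only and 2 in the 36-cycle list only. They lay mostly outside the gene, with 6 upstream, 6 downstream and 1 inside.

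A run of 6 peaks covered 29.2 kb and ended at the Itpr3 start site. Its last member, chr17:27056833-27057265 (433 bp), ended 39 bp before the annotated start and was listed after 36 cycles only. It was the only peak of the set within 1 kb of the start site of its gene, and the only 1 to meet any of the 8 promoters of these genes in the RefSeq table used here. No promoter of Itpr1 or Atp2a2 was among those 8. At 5.50 kb upstream lay chr17:27051558-27051806 (249 bp, 30-cycle list). Further upstream, chr17:27041725-27042118 (394 bp) and chr17:27038215-27039110 (896 bp) were in both lists, 15.2 and 18.2 kb from Itpr3, and had Bak1, a pro-apoptotic BCL2 family gene, as the nearest start. The outermost pair, from the 30-cycle list, lay at the start of Bak1 itself, 1 over it and 1 at 0.611 kb.

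The peak at the Itpr3 start is shown because it is the promoter case of the set. It had a GC content of 64.7%, against a median of 48.5% over the 58 peaks, and the central 300 bp hold 1 CAGCTG, in capitals.
Itpr3, chr17:27056899-27057198: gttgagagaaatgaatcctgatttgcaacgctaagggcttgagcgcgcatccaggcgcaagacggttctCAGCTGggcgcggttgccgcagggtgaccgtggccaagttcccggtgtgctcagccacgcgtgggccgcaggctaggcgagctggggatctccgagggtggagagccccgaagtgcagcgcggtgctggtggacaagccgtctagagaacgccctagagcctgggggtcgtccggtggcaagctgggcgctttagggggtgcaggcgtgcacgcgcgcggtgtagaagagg

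Inside Itpr3, chr17:27083511-27084126 (616 bp, 30-cycle list) met coding exon 3 of 58, 26.2 kb from the start. Past the 3′ end, chr17:27153643-27154875 was in both lists and, at 1233 bp, the widest of the 58. It lay in Ip6k3, an inositol hexakisphosphate kinase gene, as did a narrower peak of the 30-cycle list, 104 kb from the Itpr3 start. The other 4 downstream peaks were each in 1 list and had Uqcc2, a gene of mitochondrial complex III assembly, or Lemd2, which encodes an inner nuclear membrane protein, as the nearest start.

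**Figure D2:**
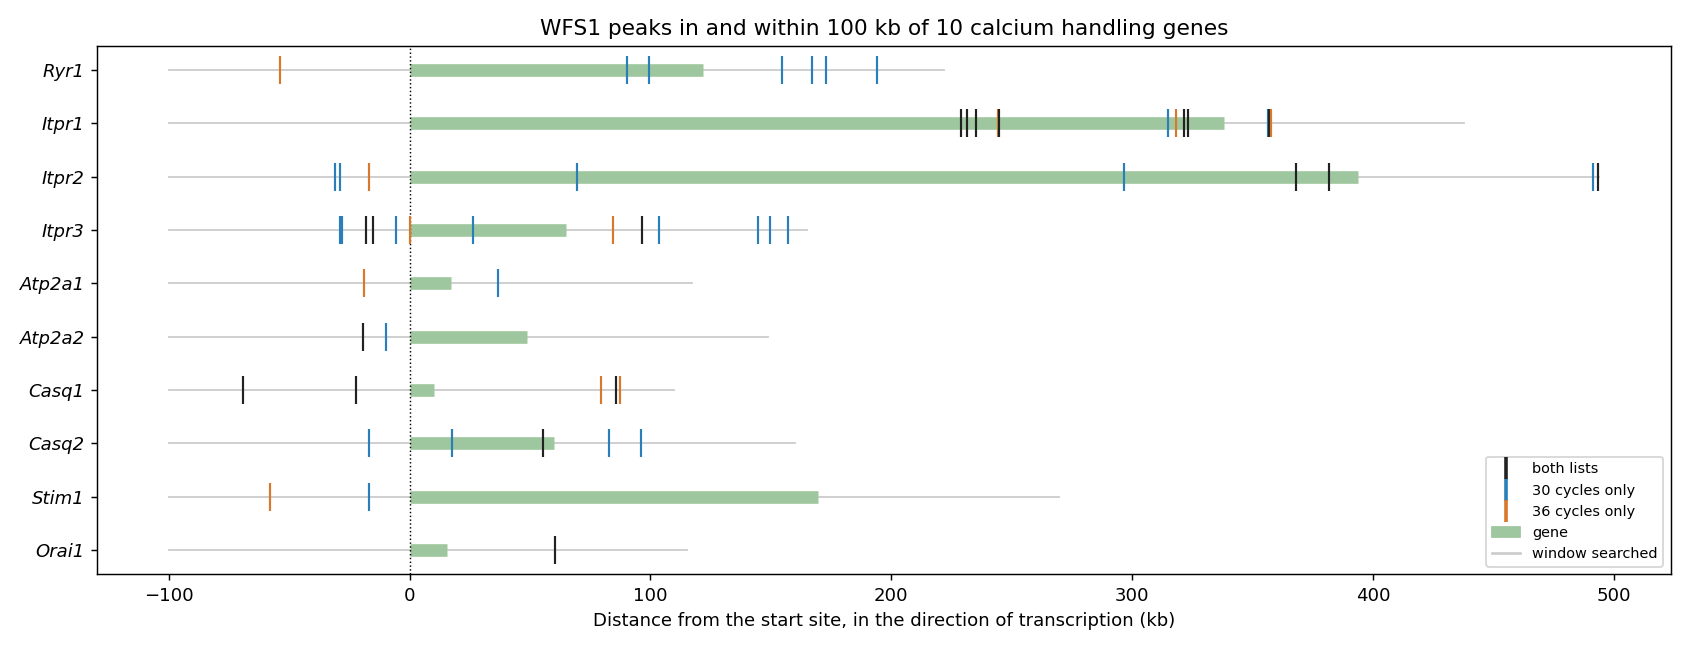
Map of the 58 joined peaks, with the distance from each gene's start site in the direction of transcription (horizontal axis, kb), the gene as a green bar, the searched window as a grey line and each peak as a tick coloured by list. The 12 peaks of Itpr1 start 229 kb into the gene, those of Itpr3 sit on both sides of it and at its start, and the bars of Atp2a1, Atp2a2, Casq1, Stim1 and Orai1 hold no tick.

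The pump genes had few peaks and none inside. Atp2a1 (ENSMUSG00000030730, chr7:126445858-126463108, minus strand) encodes SERCA1, the pump of fast-twitch muscle. Its 2 peaks, 1 from each list, were 19.1 kb upstream of the start (195 bp, 36-cycle list, nearest to Tufm, a mitochondrial elongation factor gene) and 36.7 kb from the start, past the 3′ end. The latter, chr7:126425953-126426417 (465 bp, 30-cycle list), was the widest of the window and lay 2.34 kb before the start of Rabep2, an endosomal effector gene. Of 2662 protein-coding genes of like length, 61.8% had as many as 2 peaks.

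Atp2a2 (ENSMUSG00000029467, chr5:122453513-122502225, minus strand) encodes SERCA2, the pump of slow-twitch and cardiac muscle and, as another isoform, of the endoplasmic reticulum of most cells. Both of its peaks lay upstream, and for both its own start was the nearest protein-coding start. The first, chr5:122512028-122512299 (272 bp, 30-cycle list), was 9.80 kb from the start site. The second, chr5:122521469-122522655 (1187 bp), was 19.2 kb from it and in both lists at almost the same width, 1187 bp after 30 cycles and 1157 bp after 36. Repeats covered 78.3% of this wide peak and 37.9% of the nearer one. The median of 2073 protein-coding genes of like length was 3, and 64.5% had as many as Atp2a2. The nearer peak is shown whole, with capitals at 1 CAGCTG and 1 CATTCC, a sequence of TEAD factors.
Atp2a2, chr5:122512028-122512299: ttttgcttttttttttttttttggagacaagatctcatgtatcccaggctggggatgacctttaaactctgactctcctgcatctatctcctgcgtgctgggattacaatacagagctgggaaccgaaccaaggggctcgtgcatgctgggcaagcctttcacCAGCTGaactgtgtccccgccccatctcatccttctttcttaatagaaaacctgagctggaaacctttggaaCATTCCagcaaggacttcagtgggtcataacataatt

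The calsequestrin genes had 5 peaks each and differed in where these lay. Casq1 (ENSMUSG00000007122, chr1:172209894-172219868, minus strand) encodes the calsequestrin of fast-twitch muscle and had 3 peaks in both lists and 2 in the 36-cycle list only, all outside the gene. In the 36-cycle list all 5 were found, against 3 in the 30-cycle list. Each lay nearest to the start of a neighbour. Upstream, chr1:172242336-172243007 (672 bp) was 22.5 kb away and inside Atp1a4, which encodes a catalytic subunit of the sodium-potassium pump. The other upstream peak, chr1:172289242-172289825 (584 bp), was 69.4 kb away and in both lists too. Downstream, chr1:172133565-172134290 (726 bp), the widest of the window, lay in Pex19, a peroxisome biogenesis gene, with the remaining pair within 8.06 kb. Of 2495 protein-coding genes of like length, 26.2% had as many as 5 peaks, and the median was 2.

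Casq2 (ENSMUSG00000027861, chr3:102086415-102146514, plus strand) encodes the calsequestrin of cardiac and slow-twitch muscle. It had 1 peak in both lists and 4 in the 30-cycle list only, so 5 were found after 30 cycles and 1 after 36, the opposite of Casq1. The peak of both lists, chr3:102141691-102142194 (504 bp), was the widest and met coding exon 10 of 12. The other peak inside, chr3:102103824-102104159 (336 bp), lay in intron 1 of 11, 17.4 kb from the start. A peak of 245 bp was 16.8 kb upstream, and a pair lay past the 3′ end in Vangl1, a planar cell polarity gene. The nearest start was that of Casq2 for 3 of the 5. Of 1795 protein-coding genes of like length, 29.6% had as many as 5, and the median was 3. The central 300 bp of the exon peak are shown because it is the only peak of both lists that met a coding exon. They hold 1 TGACTCA, the sequence of AP-1 factors, toward the 3′ side, which reaches past the edge of the central 200 bp.
Casq2, chr3:102141793-102142092: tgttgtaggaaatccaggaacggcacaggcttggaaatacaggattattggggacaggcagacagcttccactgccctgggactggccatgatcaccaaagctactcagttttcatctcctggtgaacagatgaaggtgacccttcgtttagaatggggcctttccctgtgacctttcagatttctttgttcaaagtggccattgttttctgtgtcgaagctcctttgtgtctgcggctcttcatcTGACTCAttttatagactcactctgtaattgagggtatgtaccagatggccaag

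Stim1 and Orai1, the pair that carries store-operated entry, had 2 peaks and 1. The other 6 store-operated entry genes of the list counted at the end all had a peak, with a median of 6. Stim1 (ENSMUSG00000030987, chr7:102267806-102437319, plus strand), the calcium sensor of the store, is 170 kb long and held no peak, whereas 58.0% of 754 protein-coding genes of like length held at least 1. Its 2 peaks were both upstream and in 1 list each. The nearer, chr7:102250443-102250783 (341 bp, 30-cycle list), was 17.0 kb from the start and in Rhog, a small GTPase gene. The farther, 57.8 kb upstream and listed after 36 cycles only, was 0.163 kb from the start of Nup98, a nucleoporin gene, and its GC content of 73.4% was the highest of the 58. Of the like-length genes, 69.0% had as many as 2 peaks in the window.

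Orai1 (ENSMUSG00000049686, chr5:123015074-123030456, plus strand), the pore of the plasma membrane channel, had 1 peak. It was chr5:123075362-123076553 (1192 bp), 60.3 kb downstream of the start, in Tmem120b, and it was in both lists. The 30-cycle list held it as 2 peaks that were joined by the peak of the 36-cycle list. Of 2618 protein-coding genes of like length, 78.3% had at least 1 peak in the window, and the median was 2.

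By list, the 58 peaks resembled the combined set. They were in both lists for 19 of 58 (32.8%, 95% Wilson interval 22.1 to 45.6%), in the 30-cycle list only for 28 (48.3%, 35.9 to 60.8%) and in the 36-cycle list only for 11 (19.0%, 10.9 to 30.9%). The shares over all joined peaks were 35.4%, 45.5% and 19.1%, each inside the interval. The intervals cover counting error over peaks only. Among the genes the split was uneven. Itpr1 held 7 of the 19 peaks of both lists, whereas Ryr1, Atp2a1 and Stim1 held none, so that every peak of these 3 genes rests on 1 library.

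The width of the peaks followed the list. The 19 peaks of both lists were 394 to 1233 bp wide with a median of 610 bp, and all 19 exceeded the median of the combined set, as did 88.8% of all peaks of both lists. Of the 28 peaks of the 30-cycle list only, 10 exceeded it (35.7%, against 34.1% over all such peaks), with a median of 324 bp. Of the 11 peaks of the 36-cycle list only, 2 exceeded it (18.2%, against 15.8%), with a median of 252 bp. A joined peak spans the outer ends of its parts, so a peak of both lists can only be as wide as its widest part or wider.

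**Figure D3:**
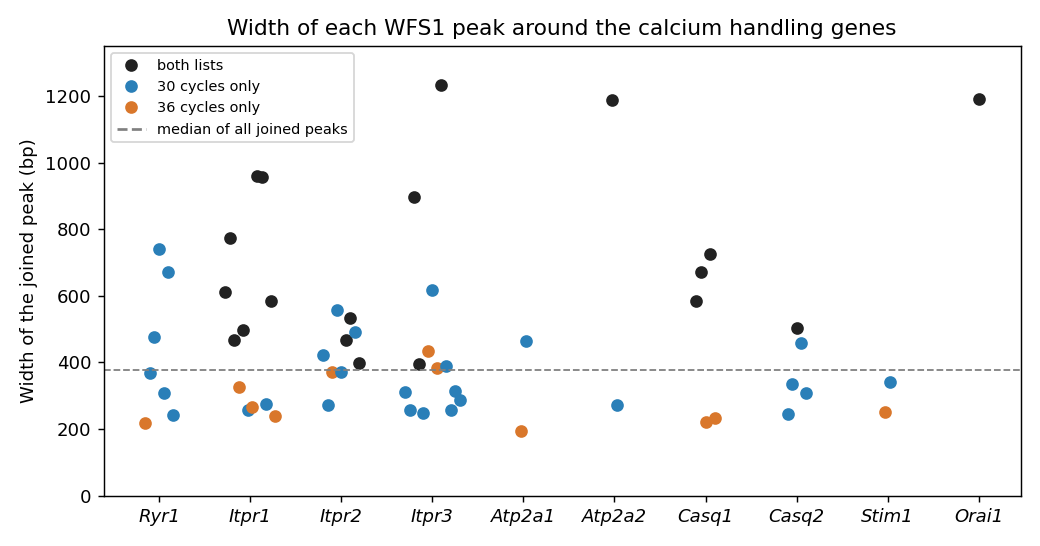
Width of each of the 58 joined peaks (vertical axis, bp) by gene, with points coloured by list and spread sideways for legibility, and a dashed line at the median of all joined peaks, 376 bp. All 19 black points, which stand for peaks of both lists, lie above the line, up to 1233 bp at Itpr3.

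The peaks around the 10 genes were close to the combined set in base composition, with a median GC content of 48.5% (33.3 to 73.4%) against 47.1%. Repeats covered more than 50% of 8 of the 58 peaks (13.8%, against 10.4% overall). Within 1 kb of the start of any protein-coding gene lay 4 of the 58 (6.90%, interval 2.71 to 16.4%), and 13.8% of all joined peaks. These 4 were at Itpr3, at Bak1 (2 peaks) and at Nup98, so 3 of them belonged to a neighbour's start. The median distance to a protein-coding start was 17.2 kb for the 58 and 28.9 kb overall. Inside the genes, 16 of the 18 peaks lay in introns and 2 met a coding exon.

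Runs of peaks around the 10 genes were counted at 1 linking distance. With peaks at most 12.5 kb apart linked, a distance chosen after the values were seen, 35 of the 58 (60.3%) belonged to a run of at least 3, against 35.6% of all joined peaks. Neighbouring peaks are not independent and the windows were picked around genes, so this share is a description. No other linking distance was counted, so how far the share depends on it is unknown. Itpr1 had 3 such runs, of 5, 4 and 3 peaks, and Itpr3 had 3, of 6, 3 and 3 peaks. Itpr2 had 2, Ryr1 and Casq1 had 1 each, and the other 5 genes had none.

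Motifs of muscle and enhancer factors were searched on both strands in the central 200 bp of each peak. The E-boxes were CAGCTG and, as the alternative with a central GG, CAGGTG. The AP-1 sequence was TGACTCA, and the TEAD sequence was CATTCC. For RUNX factors, AACCACA was searched with, as a rarer form, AACCGCA. The sites named MEF2 and CArG completed the 8. CAGCTG was found in 11 of the 58 peaks (19.0%, interval 10.9 to 30.9%), in 18.0% of all joined peaks and in 7.14% of 13237130 windows of 200 bp along the genome. TGACTCA was found in 12 (20.7%, 12.3 to 32.8%), against 17.9% and 3.10%. The RUNX sequence AACCACA was found in 8 (13.8%, 7.16 to 24.9%), against 10.6% and 4.67%. For these 3 motifs the interval of the 58 lay above the share of genome windows and held the share of all joined peaks. The motifs were chosen with earlier results of these data known, and the paper reported CAGCTG as enriched in this peak set. The comparison with genome windows therefore describes the 58 and was no independent test of these motifs.

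For the other 5 motifs the interval held the share of genome windows. CATTCC was found in 10 of the 58 peaks (17.2%, 9.64 to 28.9%), against 15.6% of all joined peaks and 10.8% of genome windows. CAGGTG, the other E-box, was found in 6 (10.3%, 4.83 to 20.8%), against 11.0% and 11.8%. MEF2 was found in 3 (5.17%, 1.77 to 14.1%), against 2.44% and 4.68%. CArG was found in 0, which allows up to 6.21% by the Wilson interval, against 1.02% and 1.16%. AACCGCA was found in 1 (1.72%, 0.305 to 9.14%), against 1.53% and 0.309%. Over the whole peaks, which are wider than the genome windows, the shares of the 58 were 37.9% for CAGCTG, 27.6% for CAGGTG, 31.0% for CATTCC and 29.3% for TGACTCA. The whole-peak shares of the 58 were 19.0% for the RUNX sequence, 3.45% for its rarer form, 5.17% for MEF2 and 1.72% for CArG. Whole-peak shares were not counted over all joined peaks. The shares of all joined peaks above are for the central 200 bp and are no background for them. Peaks and genome windows differ in base composition, which was not matched here. A match is a string in the reference sequence and does not show that a factor bound there.

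**Figure D4:**
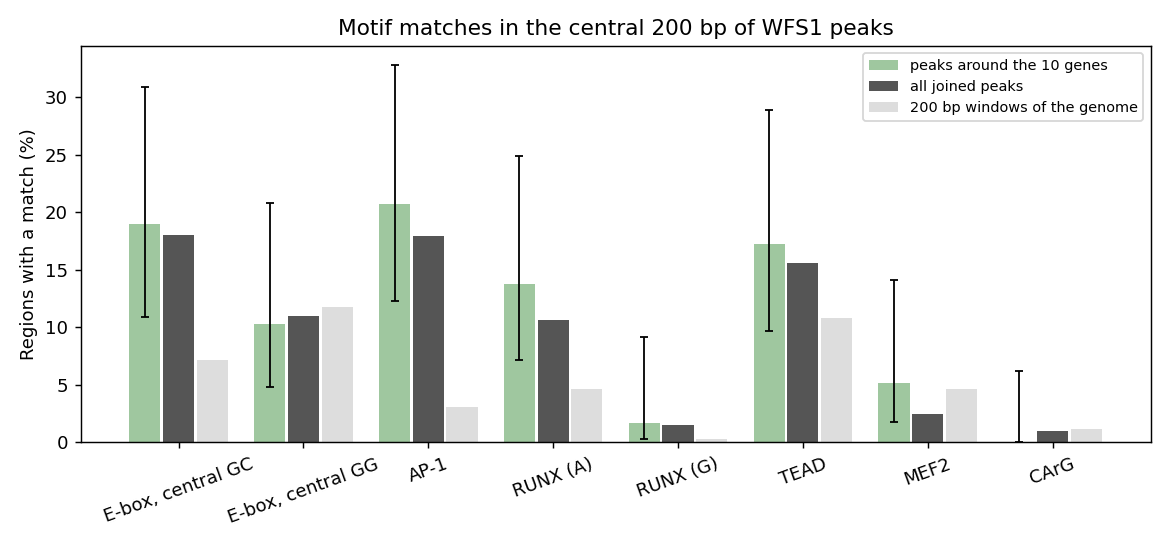
Share of regions with a motif in their central 200 bp (vertical axis, %) for the 58 peaks around the 10 genes (green, with 95% Wilson intervals), all joined peaks (dark grey) and 200 bp windows of the genome (light grey). The E-box with a central GC and the AP-1 sequence reach 19.0% and 20.7% of the 58 peaks, near the dark bars and above the light ones, at 7.14% and 3.10%. The motifs were chosen with earlier results of these data known.

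By gene the counts are small, and no difference between genes was tested. TGACTCA was in the centre of 4 of the 9 peaks of Itpr2, 3 of the 12 of Itpr1, 2 each of Itpr3 and Casq2 and 1 of Ryr1, and in none of the pump, Casq1, Stim1 or Orai1 windows. CAGCTG was in 4 peaks of Itpr1, 3 of Casq1, 2 of Itpr3 and 1 each of Atp2a2 and Stim1. At Itpr1 no peak had both in its centre, since the 3 with TGACTCA were the first 3 of intron 44 and the 4 with CAGCTG lay farther 3′. The only peak with both was that 5.50 kb upstream of Itpr3.

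The TGACTCA matches of Itpr1 and Itpr2 are shown for comparison, each with 15 bases on both sides, read in the direction of the motif on the strand named, with the motif in capitals. These stretches were picked after the values were seen.
Itpr1, chr6:108442513-108442549, strand -: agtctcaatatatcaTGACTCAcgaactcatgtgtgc
Itpr1, chr6:108444672-108444708, strand +: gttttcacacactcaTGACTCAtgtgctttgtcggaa
Itpr1, chr6:108448572-108448608, strand -: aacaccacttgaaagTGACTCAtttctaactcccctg
Itpr2, chr6:146008717-146008753, strand -: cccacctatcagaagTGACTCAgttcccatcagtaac
Itpr2, chr6:146010594-146010630, strand -: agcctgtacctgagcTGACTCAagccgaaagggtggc
Itpr2, chr6:146205291-146205327, strand -: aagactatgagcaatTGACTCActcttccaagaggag
Itpr2, chr6:146432621-146432657, strand +: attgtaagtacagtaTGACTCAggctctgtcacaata

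The CAGCTG matches downstream of Casq1, in peaks that lay in or near Pex19 and Dcaf8, are given in the same way. Of these matches, 2 were in the peak 79.4 kb from the Casq1 start.
Casq1, chr1:172132451-172132486, strand +: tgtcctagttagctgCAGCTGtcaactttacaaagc
Casq1, chr1:172140334-172140369, strand +: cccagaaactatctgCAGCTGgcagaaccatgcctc
Casq1, chr1:172140381-172140416, strand +: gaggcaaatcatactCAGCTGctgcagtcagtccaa

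Other genes of muscle calcium handling were counted in the same way from a list of 54 symbols written by function, of which 51 matched the annotation. A joined peak lay in or within 100 kb of 45 of the 51 (88.2%), beside the 73.4% of protein-coding genes, and a peak of both lists lay there for 31, beside 47.8%. Inside the gene, 21 of 51 (41.2%) held a peak, beside 24.6%, and 11 (21.6%) had 1 within 1 kb of the start site, beside 13.2%. The median was 4 peaks per gene at a median length of 45.3 kb, so these genes too are longer than most. The list was written with earlier results of these data known. It was not trimmed by its values, and no test was made of it.

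Peaks at start sites were found at genes of several roles. Among partners of the release channel, Camk2d, a calcium/calmodulin-dependent kinase gene, had a peak over its start. Among voltage sensor genes they were at Cacng1, the gamma subunit of the muscle calcium channel, 0.0690 kb upstream, and at Stac3, an adaptor of that channel, 0.403 kb upstream. Among junction genes they were at Jph1, junctophilin 1, 0.239 kb upstream, and at Bin1, a tubule-shaping protein, at 0.976 kb. Mrln, whose micropeptide myoregulin inhibits SERCA, and Atp2b1, a plasma membrane calcium pump, had peaks over their starts. Stim2, a paralog of Stim1, had 1 at 0.617 kb, Tmem38b, a counter-ion channel, 1 at 0.223 kb, and Micu2, a regulator of mitochondrial uptake, 1 at 0.0480 kb upstream.

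Among the genes with the most peaks was Mcu, the pore of the mitochondrial calcium uniporter, which had 19, with 8 in both lists and 10 inside the gene. Lower counts were those of Camk2d with 14, Camk2g with 12 and Cacnb1, the beta subunit of the muscle calcium channel, with 11. Beside the 73.4% of protein-coding genes, a peak was found for 6 of 6 voltage sensor genes (median 6.50 peaks), 6 of 6 of store-operated entry (median 6), 5 of 5 buffers (median 2) and 4 of 4 of plasma membrane export (median 3.50). It was found for 8 of 10 release channel partners (median 5), 7 of 9 junction genes (median 4) and 2 of 3 pump regulators (median 4). No peak was listed in or within 100 kb of Ryr3, Fkbp1b, Camk2b, Sln, Cav3 or Sypl2, which were named after their values were seen. Of the paralogs of Ryr1, Ryr2 (554 kb) had 3 peaks, equal to the median of 3 of its like-length genes, and Ryr3 (586 kb) had 0, where that median was 2.

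**Figure D5:**
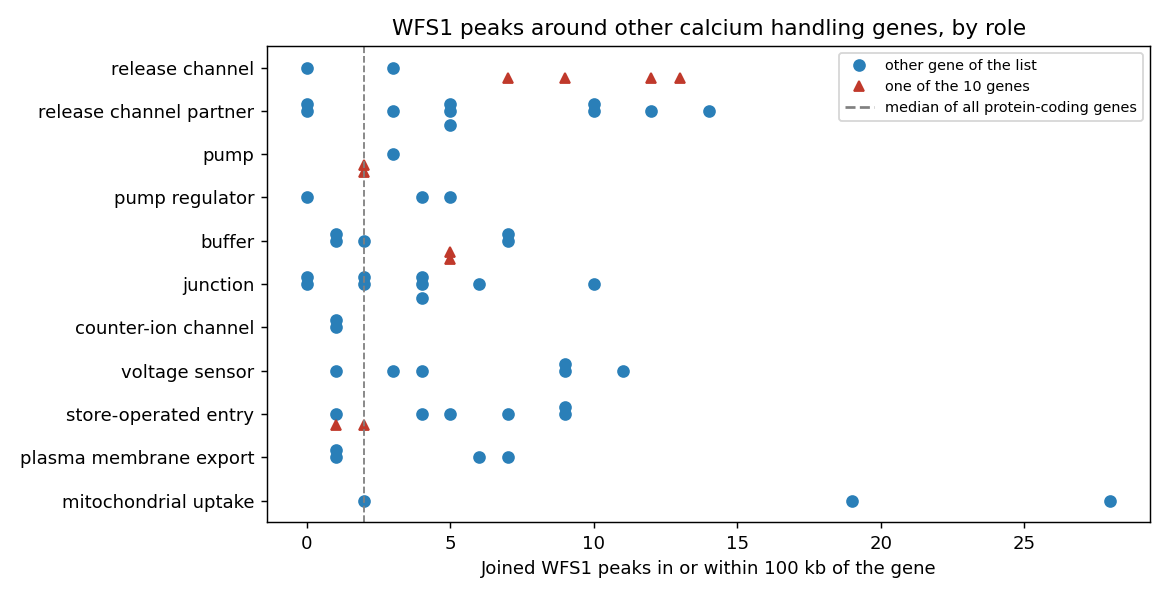
Number of joined peaks in or within 100 kb (horizontal axis, count) for the 51 other calcium handling genes (circles) and the 10 genes (triangles) by role, with equal counts spread vertically and a dashed line at the median of protein-coding genes, 2. The 4 triangles of the release channels lie at 7 to 13, whereas the circles of that role are Ryr2 at 3 and Ryr3 at 0. The circle at 19 is Mcu.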

How the data were processed

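WFS1 ChIP-seq peak lists of wildtype C2C12 myoblasts were used, 1 library after 30 and 1 after 36 sonication cycles. For each library on its own, the authors aligned the reads with NextGenMap to GRCm38, dropped poorly mapped ones (samtools) and ran MACS2 as the peak caller. The control used in peak calling is not given in the sources used here. The deposited files hold only the position of every peak, without signal, score or p-value, so the depth per library is unknown.

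Here, the lists were joined where peaks overlapped or touched, with a result identical to bedtools merge. The gene annotation was GENCODE mouse release 21 (Ensembl 96). The 5′ end of a gene was taken as its start site, and introns were numbered in the transcript with the most coding bases. Sequences and repeat (soft-masked) bases were read from the RefSeq copy of GRCm38. Motifs were searched in the central 200 bp, and 22287 of the joined peaks lay on nuclear chromosomes. No p-value was computed, since each condition has 1 library. Wilson intervals (95%) cover counting error only.

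The 10 genes, the gene list and the motifs were chosen with earlier results of these data known. Given by coordinates were peaks inside a gene, within 10 kb of its start or in both lists, and the widest of each window. Neighbours were named where theirs was the nearest protein-coding start, and listed genes for a peak within 1 kb of the start or for the 5 highest counts. Some genes that this names, with the values that need them, are not reported here. The calls of genes with a peak, distances, list classes and the motif search were tested on simulated data. Alternatives were other windows, each list alone, wider peaks, peaks low in repeats, joining over gaps of 500 bp, every transcript start, other gene backgrounds and whole peaks for motifs. The versions were python 3.11.15, scipy 1.17.1, matplotlib 3.10.9 and bedtools 2.31.1.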

Additional observations from a re-analysis of the deposited data

How the results depend on the processing

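The number of peaks in or within 100 kb of the 10 genes was 58, and it was 101 with windows of 200 kb, 30 in the 36-cycle list alone, 31 among peaks wider than the median and 12 when a peak counted only for the nearest protein-coding start. The 36-cycle list alone had 11 peaks inside the genes, against 18. The share in both lists was 32.8%, 19.0% when at least 50% of each peak had to be shared, and 61.3% among peaks wider than the median. Of all joined peaks wider than the median, 7010 were in both lists, 3463 in the 30-cycle list only and 671 in the 36-cycle list only. The share under the 50% rule was not counted over all joined peaks. A peak lay within 1 kb of the start in 1 of the genes, in 2 with every transcript start and in 0 in the 30-cycle list alone. Within 10 kb it lay in 2, and in 5 with every transcript start. The background was 73.4%, 63.0% over all annotated genes and 78.9% over coding genes in the range of length of the 10.

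The nearest peak changed sides of the start site in 5 cases. It lay at 90.4 kb for Ryr1 and 36.7 kb for Atp2a1 in the 30-cycle list alone, at 55.3 kb for Casq2 in the 36-cycle list alone, and at 11.9 kb for Ryr1 and -0.197 kb for Itpr1 with every transcript start. Each follows from the peaks or starts that the alternative adds or removes. In all, 41 alternative values stayed close to those reported (counts within 1.5 times), 21 moved in size and these 5 changed sides. No paired analysis was possible because the conditions have 1 library each, and for the same reason no replicate was left out. The lists give no score, so width stood in for a stricter threshold. A peak missing from a list cannot be told apart from one missed at that depth.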
